A study of Homo sapiens with 10 samples.

Results

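The 39 genes described here are 17 glycolytic enzymes, 7 regulators and transporters of glycolysis, 6 genes of the hypoxia-inducible factor (HIF) pathway and 9 other hypoxia genes such as ADM. They were chosen by name, and all 39 were found among the 20263 genes of the deposited expression table after its Ensembl identifiers were matched to gene symbols. The study treated PANC-1 cells, a human pancreatic ductal carcinoma line, and sequenced their messenger RNA. The 5 LY libraries came from PANC-1 cells given lycorine, an alkaloid of the amaryllis family, at 20 µM for 24 h. The 5 DMSO libraries came from PANC-1 cells given dimethyl sulfoxide, the solvent. All 10 libraries share this 1 cell line, and nothing in the sources says that the libraries of a group were separate cultures, so p-values measure only the spread between these libraries. The table names its control columns NC-1 to NC-5. No sample title uses that name, and the columns were taken as the DMSO group because it is the other group of the series. No column could be tied to a single numbered DMSO sample.

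Glycolysis splits glucose into pyruvate in the cytosol, and lactate dehydrogenase turns pyruvate into lactate. HIF is a pair of proteins, an alpha subunit (the product of HIF1A or EPAS1) and the beta subunit encoded by ARNT. With oxygen present, prolyl hydroxylases of the EGLN family mark the alpha subunit, the VHL ubiquitin ligase binds the marked protein and it is degraded, so that the pathway is controlled mainly at the level of protein. When oxygen is low the pair binds DNA and raises many glycolytic genes together with ADM, VEGFA, CA9 and others, and pancreatic carcinoma is known for poorly perfused tissue and high glycolysis.

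Values are TPM, a transcript abundance scaled for gene length and to the same total in each library, so a level is a share of the RNA of that library. Read depth cannot be had from TPM and is unknown. Mitochondrially encoded genes took 6.43% to 14.9% of TPM in the LY libraries, against 37.5% in NC-2 and 12.2% to 14.1% in the other DMSO libraries. NC-2 therefore stands apart from its group, and where leaving it out changed the call of a member, this is stated. Of 8 epithelial and ductal carcinoma markers, 5 were at 1 TPM or above in every library, and CDH1 and KRT7 were under 1 TPM in every library. The 5 acinar and 4 endocrine markers were at 0 in all libraries. Leukocyte markers summed to 131 to 232 TPM in LY libraries, against 34.5 to 47.3 TPM in DMSO libraries, with CD3E and LYZ at 0 and CD68 making up nearly all of the level. Endothelial markers summed to 2.74 to 3.32 TPM in LY, against 0.0988 to 0.535 TPM in DMSO, with PECAM1 at 0. Fibroblast markers summed to 27.7 to 37.7 TPM in LY, against 68.9 to 115 TPM in DMSO, with DCN and LUM at 0. The part of these differences in the results below was not tested, and in bulk RNA a change in the number of cells of a type cannot be told apart from a change in RNA per cell.

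Differences were tested with limma on log2(TPM + 1) over the 11663 genes that reached 1 TPM in at least 5 of the 10 libraries. Fold changes in log2 are on that scale, LY over DMSO, with their standard error, and they understate the change of low genes. A gene was called changed at a Benjamini-Hochberg adjusted p under 0.05. Of the 39 genes, 35 were tested. SLC2A3, EGLN3, CA9 and CA12 were too low. With LY, 13 members rose, 12 fell and 10 did not pass, so 71.4% changed. Over all tested genes 64.6% changed, with 39.8% higher and 24.9% lower, so a change by itself did not set the members apart. A change of at least 2-fold in a called gene was seen in 9 of the 35 members and in 22.1% of all tested genes. The values of the LY and DMSO libraries did not overlap for 16 of the 35 members, against 49.4% of all tested genes. With NC-2 left out, 24 of the 35 members did not overlap, against 61.4% of all tested genes. The median of all tested genes lay at 0.17 on the log2 scale. Changes of single genes are given without correction for that shift. The medians of the enzymes and of the HIF and hypoxia genes are also given relative to it.

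The glycolytic enzymes moved in both directions, in part between isoforms of the same step. Of the 17, 3 rose (HK1, HK2 and PFKP), 7 fell (GPI, PFKL, ALDOC, TPI1, GAPDH, PGK1 and PGAM1) and 7 did not pass. That is 58.8% changed, against 64.6% of all tested genes (39.8% higher and 24.9% lower). The median log2 change over the 17 was -0.19, and -0.36 relative to the median of all tested genes. The 3 enzymes that rose belong to the hexokinase and phosphofructokinase steps, where ATP is spent. At the phosphofructokinase step only PFKP rose, while PFKL fell and PFKM did not pass. GAPDH, PGK1 and PGAM1, which act one after the other in the lower part of the pathway, all fell.

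Hexokinases add a phosphate to glucose as it enters the cell. HK2 (ENSG00000159399, chr2:74833981-74893359), the inducible hexokinase of many tumours, stood at 60.9, 48.7, 71.2, 75.5 and 77.0 TPM in LY-1 to LY-5, against 12.4, 8.69, 9.48, 9.87 and 11.6 TPM in NC-1 to NC-5. Every LY library was far above every DMSO library. The means were 66.6 ± 11.8 TPM with LY and 10.4 ± 1.56 TPM with DMSO (SD, n = 5 each), a 6.39-fold ratio and a log2 change of 2.56 ± 0.14 (limma, adjusted p = 4.76e-08). HK2 ranked 43 among the 11663 tested genes by size of increase. HK1, the hexokinase of most tissues, was at 169, 206, 209, 190 and 204 TPM in LY, against 152, 109, 143, 145 and 146 TPM in DMSO. The groups did not overlap, with NC-2 the lowest, and the log2 change was 0.50 ± 0.11 (limma, adjusted p = 0.00194).

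Glucose-6-phosphate isomerase, encoded by GPI, was at 328, 343, 369, 360 and 334 TPM in LY, against 535, 284, 526, 474 and 590 TPM in DMSO. NC-2 lay below all LY libraries and the other 4 DMSO libraries above them. The log2 change was -0.43 ± 0.17 (limma, adjusted p = 0.0445), the call was lost on leaving out any 1 library other than NC-2, with an adjusted p of up to 0.108, and without NC-2 it was -0.61 (adjusted p = 3.98e-05).

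Phosphofructokinase commits sugar to glycolysis and is built from the subunits PFKL, PFKM and PFKP. PFKP, the platelet type, was at 351, 389, 393, 384 and 419 TPM in LY, against 307, 198, 294, 283 and 301 TPM in DMSO, and it rose by 0.50 ± 0.13 on the log2 scale without overlap (limma, adjusted p = 0.00422). PFKL, the liver type, was at 113, 130, 142, 149 and 165 TPM in LY, against 242, 123, 241, 223 and 224 TPM in DMSO. It fell by 0.56 ± 0.18 on the log2 scale (limma, adjusted p = 0.0186), and NC-2 was the only DMSO library inside the LY range. PFKM, the muscle type, averaged 59.4 ± 12.3 TPM in LY and 69.0 ± 17.98 TPM in DMSO and did not pass (adjusted p = 0.455). Without NC-2, PFKM passed at -0.39 on the log2 scale (adjusted p = 0.0414).

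Aldolase cleaves the sugar bisphosphate, and triose-phosphate isomerase interconverts its products. ALDOC, the brain-type aldolase, was at 0.695, 0.942, 1.62, 1.06 and 1.60 TPM in LY, against 5.38, 1.54, 5.57, 5.94 and 5.66 TPM in DMSO. The 4 DMSO libraries other than NC-2 were far above LY, and NC-2 fell among the LY values. Its log2 change was -1.35 ± 0.26 (limma, adjusted p = 0.000727), the largest decrease among the 17 enzymes, at a level that is a small fraction of ALDOA. ALDOA, the main aldolase, averaged 715 ± 56.7 TPM in LY and 781 ± 142 TPM in DMSO and did not pass (adjusted p = 0.523). Without NC-2 the ALDOA groups did not overlap, and its log2 change was -0.24 (adjusted p = 0.0200). TPI1 was at 1463, 1659, 1777, 1880.2 and 1980.0 TPM in LY, against 2693, 1459, 2742, 2693 and 2800.2 TPM in DMSO. NC-2 was just under the lowest LY library and the other DMSO libraries were well above the highest. TPI1 fell by 0.47 ± 0.19 on the log2 scale (limma, adjusted p = 0.0437). That call held on leaving out NC-2 (-0.65, adjusted p = 0.000111) or LY-5, and was lost on leaving out any 1 of the other 8 libraries, with an adjusted p of up to 0.0990.

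GAPDH (ENSG00000111640, chr12:6533927-6538374), which oxidises glyceraldehyde phosphate and is widely used as a reference gene, was the most abundant of the 39 genes. It was at 4187, 4687, 4015, 3921 and 4385 TPM in LY, against 7707, 5712, 7836, 7856 and 7754 TPM in DMSO. Every LY library was below every DMSO library, NC-2 included. The means were 4239 ± 306 TPM with LY and 7373 ± 931 TPM with DMSO (SD, n = 5 each), a ratio of 0.575 and a log2 change of -0.79 ± 0.14 (limma, adjusted p = 0.0003). GENCODE 29 names 62 pseudogenes after GAPDH, so its reads could be split by the counting, and the same holds for PGAM1 with 13.

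PGK1, which makes the first ATP of the pathway, was at 97.3, 95.0, 122, 135 and 125 TPM in LY, against 205, 119, 209, 217 and 238 TPM in DMSO. NC-2 lay within the LY range and the other 4 DMSO libraries above it. PGK1 fell by 0.75 ± 0.18 on the log2 scale (limma, adjusted p = 0.00313). Its locus overlaps ATP7A on the same strand and PGAM4 on the other. PGAM1, the phosphoglycerate mutase of most tissues, was at 344, 363, 382, 393 and 410 TPM in LY, against 727, 478, 711, 732 and 777 TPM in DMSO. The groups did not overlap, and the log2 change was -0.84 ± 0.13 (limma, adjusted p = 0.00017).

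Enolases, pyruvate kinase and lactate dehydrogenases, the last steps, did not pass. ENO1 averaged 2994 ± 338 TPM in LY and 2971 ± 614 TPM in DMSO, with a log2 change of 0.03 ± 0.17 whose sign turned under other scalings. ENO2, the neuronal enolase, averaged 37.5 ± 8.30 TPM in LY and 43.4 ± 12.3 TPM in DMSO (-0.18 ± 0.23). PKM averaged 865 ± 56.5 TPM in LY and 1019 ± 106 TPM in DMSO (-0.23 ± 0.11, limma, adjusted p = 0.0711). Without NC-2, PKM passed at -0.27 (adjusted p = 0.0219). LDHA, which makes lactate, had the widest relative spread between DMSO libraries of the 17. It was at 988, 1162, 1035, 864 and 773 TPM in LY, against 1443, 564, 936, 479 and 512 TPM in DMSO. NC-1 exceeded every LY library, NC-3 lay among them, and the other 3 DMSO libraries were below them. LDHA changed by 0.42 ± 0.28 on the log2 scale (limma, adjusted p = 0.205), and without NC-1 it passed at 0.67 (adjusted p = 0.0145). LDHB was low, at 11.6 ± 0.416 TPM in LY and 12.6 ± 3.58 TPM in DMSO, and did not pass (adjusted p = 0.796). Without NC-2 it passed at -0.25 (adjusted p = 0.0318).

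**Figure D1:**
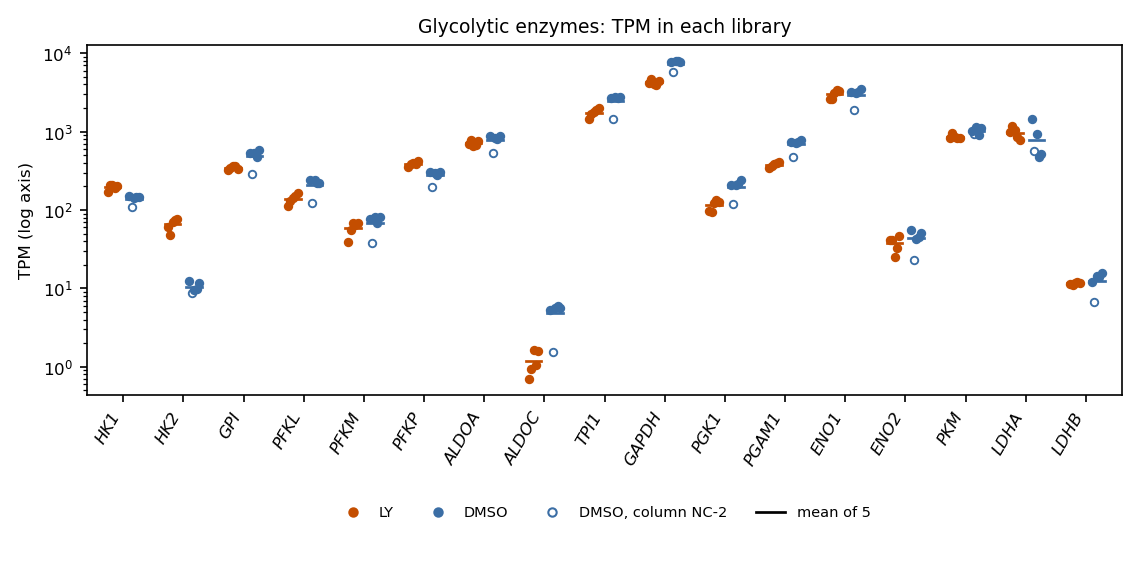
TPM (log axis) of the 17 glycolytic enzymes in the 5 LY libraries (left in each pair) and the 5 DMSO libraries, in pathway order, with lines at the group means and NC-2 as open circles. HK2 stands apart upward, from 48.7 to 77.0 TPM in LY against 8.69 to 12.4 TPM in DMSO, while GAPDH and PGAM1 lie lower in every LY library.

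Added together, the 17 enzymes took 12366 to 13859.9 TPM in the LY libraries. In DMSO they took 12483 TPM in NC-2 and 18108 to 19248 TPM in the other 4 libraries. As a share of the TPM outside mitochondrially encoded genes, the sum was 1.41% to 1.53% in LY and 1.997% to 2.24% in DMSO, with NC-2 the lowest DMSO library and no overlap. NC-2 was thus inside the LY range before that adjustment and outside it after. GAPDH alone made up 29.4% to 34.5% of the sum in LY and 40.0% to 45.8% in DMSO. GAPDH, ENO1 and TPI1 together made up 66.2% to 69.4% in LY and 70.6% to 75.7% in DMSO, so the sum follows mainly these 3 genes and says little of HK2.

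**Figure D2:**
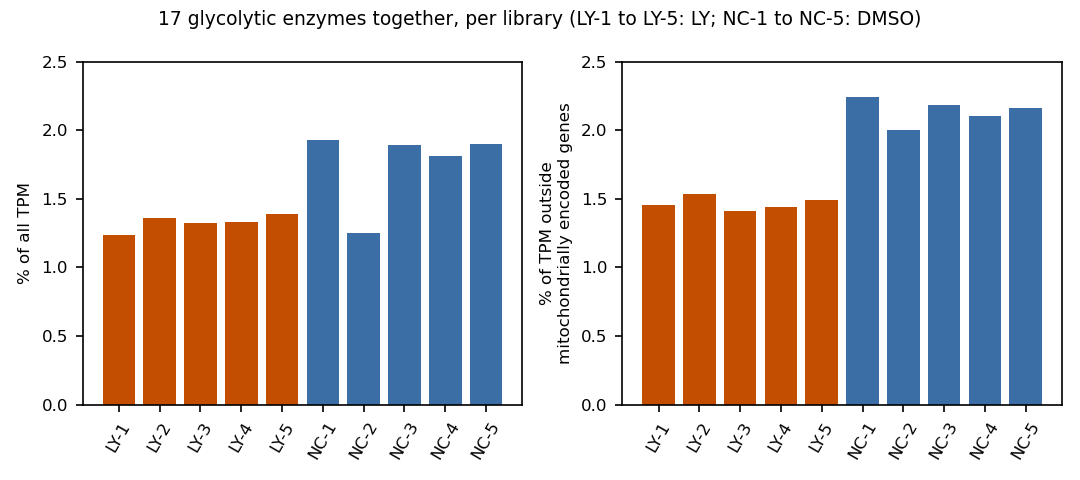
Summed share of TPM taken by the 17 glycolytic enzymes in each library, of all TPM and of TPM outside mitochondrially encoded genes, with LY left of DMSO. NC-2 lies at the LY level by the first measure and at 1.997%, above the highest LY value of 1.53%, by the second.

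Among the regulators, the enzyme pair that sets the phosphofructokinase activator split in opposite directions. PFKFB3 (ENSG00000170525, chr10:6144934-6254644), which mostly makes the activating sugar bisphosphate, was at 84.8, 94.5, 99.1, 90.0 and 63.6 TPM in LY, against 27.3, 20.1, 32.2, 32.2 and 36.9 TPM in DMSO. All LY libraries were higher than all DMSO libraries, with a 2.91-fold ratio and a log2 change of 1.52 ± 0.17 (limma, adjusted p = 7.8e-06). PFKFB4 (ENSG00000114268, chr3:48517684-48562015), its paralog, was at 0.577, 0.691, 0.538, 0.688 and 0.988 TPM in LY, against 4.72, 1.95, 4.77, 4.59 and 6.01 TPM in DMSO. All LY libraries were under 1 TPM and all DMSO libraries above it, so PFKFB4 entered the test through its DMSO values alone. A gene let in that way had to differ, so its log2 change of -1.62 ± 0.20 is a description. PFKFB4 still counts as 1 of the 12 members called lower, of the 9 changed at least 2-fold and of the 16 without overlap. Its locus overlaps UCN2 on the same strand.

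PDK1, the kinase that inactivates pyruvate dehydrogenase and keeps pyruvate out of the mitochondrial cycle, was at 6.45, 6.89, 6.22, 7.28 and 7.19 TPM in LY, against 2.19, 3.11, 1.70, 2.19 and 2.78 TPM in DMSO. The groups were well apart, and PDK1 rose by 1.22 ± 0.12 on the log2 scale (limma, adjusted p = 3.77e-06). SLC16A3, a lactate exporter known as a HIF target, was at 36.1, 40.7, 58.0, 67.0 and 77.6 TPM in LY, against 164, 64.6, 117, 113 and 133 TPM in DMSO. Only NC-2 of the DMSO libraries lay within the LY range, and SLC16A3 fell by 1.06 ± 0.26 on the log2 scale (limma, adjusted p = 0.00329). CSNK1D overlaps it on the other strand. SLC16A1, the other lactate transporter, ranged from 47.0 to 126.5 TPM in LY and from 68.8 to 89.2 TPM in DMSO and did not pass (adjusted p = 0.893).

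SLC2A1, the main glucose transporter of these genes, was at 34.2, 36.2, 37.7, 45.7 and 64.4 TPM in LY, against 30.3, 15.1, 30.6, 32.4 and 36.4 TPM in DMSO. The groups overlapped, and LY-5 and NC-2 were the extremes. SLC2A1 rose by 0.59 ± 0.23 on the log2 scale (limma, adjusted p = 0.0422), but this call was lost on leaving out LY-3, LY-4, LY-5, NC-1, NC-2 or NC-3, with an adjusted p of up to 0.104. It was 0.43 (adjusted p = 0.0650) with median-ratio scaling. SLC2A3, another glucose transporter, was at 0.0848 TPM or less in every library.

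Of the HIF pathway genes, HIF1A, ARNT and EGLN1 rose, VHL fell and EPAS1 did not pass. HIF1A (ENSG00000100644, chr14:61695513-61748259), the oxygen-regulated alpha subunit, was at 417, 357, 322, 313 and 268 TPM in LY, against 108, 173, 111, 111 and 109 TPM in DMSO. The groups did not overlap, and NC-2 was the only DMSO library above 111 TPM. The means were 335 ± 55.7 TPM with LY and 122 ± 28.2 TPM with DMSO (SD, n = 5 each), a 2.74-fold ratio and a log2 change of 1.46 ± 0.16 (limma, adjusted p = 6.34e-06). HIF1A messenger RNA was thus higher with LY, and HIF1A protein was not measured. EPAS1, the other alpha subunit, was at 23.0, 26.6, 22.1, 21.7 and 24.7 TPM in LY, against 28.9, 26.0, 22.9, 23.9 and 23.1 TPM in DMSO. Its groups overlapped and the log2 change was -0.08 ± 0.10 (limma, adjusted p = 0.512), though it passed at -0.34 with upper-quartile scaling (adjusted p = 0.0225).

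ARNT, the shared beta subunit, was at 37.5, 37.6, 33.7, 34.0 and 30.9 TPM in LY, against 25.8, 24.3, 27.0, 28.8 and 23.5 TPM in DMSO. The groups did not overlap and ARNT rose by 0.41 ± 0.09 on the log2 scale (limma, adjusted p = 0.00216). That call depended on the scaling: it was 0.24 with median-ratio scaling (adjusted p = 0.0531) and 0.15 with upper-quartile scaling (adjusted p = 0.217). EGLN1, the main oxygen-sensing prolyl hydroxylase, was at 33.0, 28.4, 36.7, 40.9 and 35.7 TPM in LY, against 21.7, 17.6, 21.0, 20.9 and 22.5 TPM in DMSO. All LY libraries were higher, with a log2 change of 0.72 ± 0.11 (limma, adjusted p = 0.000128). VHL was at 15.9, 16.5, 20.1, 20.7 and 19.2 TPM in LY, against 26.4, 16.9, 25.1, 25.5 and 24.5 TPM in DMSO. NC-2 lay among the LY values and the other 4 DMSO libraries above them. VHL fell by 0.33 ± 0.13 on the log2 scale (limma, adjusted p = 0.0459), a call lost on leaving out LY-1, LY-2, LY-5 or any DMSO library other than NC-2, with an adjusted p of up to 0.105, and held without NC-2 (adjusted p = 0.00161). EGLN3, a hydroxylase that HIF itself raises in many cells, was at 0.117 to 0.239 TPM in LY and 0.0383 to 0.130 TPM in DMSO and was not tested.

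Among the other hypoxia genes, ADM, VEGFA, KDM3A and ANKRD37 rose, BNIP3 and BNIP3L fell, and NDRG1 did not pass. ADM (ENSG00000148926, chr11:10304680-10307397) encodes adrenomedullin, a secreted vasodilator peptide. It was at 107, 115, 119, 137 and 121 TPM in LY, against 10.5, 7.80, 6.29, 9.96 and 14.8 TPM in DMSO. Every LY library was at least several times above the highest DMSO library. The means were 119.7 ± 10.9 TPM with LY and 9.86 ± 3.22 TPM with DMSO (SD, n = 5 each), a 12.1-fold ratio and a log2 change of 3.52 ± 0.18 (limma, adjusted p = 2.43e-08). ADM had the largest increase of the 35 members and ranked 6 among the 11663 tested genes.

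VEGFA, the angiogenic growth factor, was at 14.6, 22.9, 20.5, 18.9 and 15.8 TPM in LY, against 4.93, 5.92, 7.57, 7.31 and 8.34 TPM in DMSO. The groups did not overlap, with a 2.72-fold ratio and a log2 change of 1.32 ± 0.16 (limma, adjusted p = 1.36e-05). KDM3A, a histone demethylase induced by HIF, was at 28.98, 41.0, 44.1, 34.5 and 27.6 TPM in LY, against 17.1, 19.0, 16.5, 18.4 and 13.9 TPM in DMSO. It rose by 0.99 ± 0.14 on the log2 scale without overlap (limma, adjusted p = 6.99e-05). ANKRD37, a small ankyrin-repeat protein gene and HIF target, was at 6.31, 6.53, 4.67, 7.13 and 5.70 TPM in LY, against 3.21, 0.857, 1.94, 4.42 and 3.73 TPM in DMSO. The lowest LY library was just above the highest DMSO library, and the log2 change was 0.97 ± 0.25 (limma, adjusted p = 0.00519). UFSP2 overlaps it on the other strand.

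BNIP3 and BNIP3L, receptors that mark mitochondria for autophagy, moved the other way. BNIP3 was at 1.68, 2.29, 1.73, 2.28 and 2.32 TPM in LY, against 2.69, 3.17, 2.96, 2.90 and 3.13 TPM in DMSO. The groups did not overlap and BNIP3 fell by 0.38 ± 0.10 on the log2 scale (limma, adjusted p = 0.0057), a call lost with quantile normalization (-0.20, adjusted p = 0.161). GENCODE 29 names 39 pseudogenes after BNIP3, so its level is uncertain. BNIP3L was at 12.2, 12.5, 12.8, 13.6 and 12.0 TPM in LY, against 13.3, 15.7, 20.7, 14.0 and 20.0 TPM in DMSO. LY-4 lay above NC-1, and BNIP3L fell by 0.36 ± 0.13 on the log2 scale (limma, adjusted p = 0.0268), which was lost on leaving out LY-1, LY-5, NC-3 or NC-5, with an adjusted p of up to 0.0712. NDRG1, a stress-responsive gene used as a hypoxia marker, averaged 6.58 ± 0.806 TPM in LY and 5.98 ± 1.13 TPM in DMSO and did not pass (adjusted p = 0.426). The carbonic anhydrase CA9, which many hypoxic tumours express, was listed at 0 in all 10 libraries. CA12, a related enzyme, was at 0.150 to 0.255 TPM in LY and 0.351 to 1.19 TPM in DMSO, with no overlap, and was not tested.

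**Figure D3:**
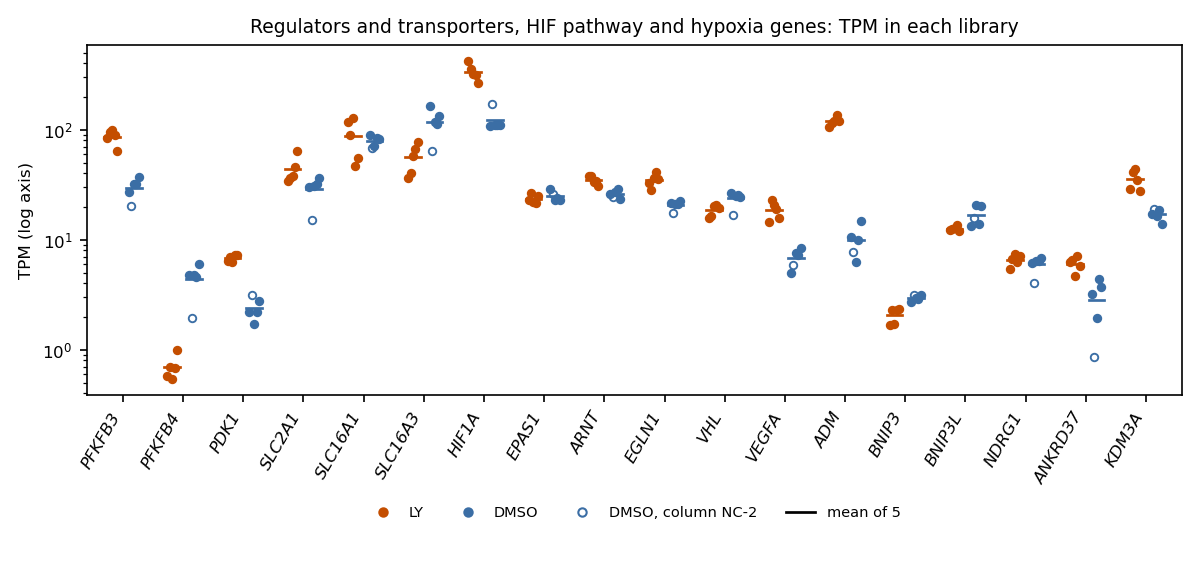
TPM (log axis) of the regulators and transporters, HIF pathway genes and other hypoxia genes in the 5 LY libraries (left in each pair) and the 5 DMSO libraries, with lines at the group means and NC-2 as open circles. ADM shows the widest gap, from 107 to 137 TPM in LY against 6.29 to 14.8 TPM in DMSO, and PFKFB4, SLC16A3 and VHL lie lower in LY.

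The sequences just upstream of 6 members are shown because these genes are known HIF targets that moved in opposite directions: ADM, HK2 and ANKRD37 rose, and PGK1, ALDOC and BNIP3 fell. Each is the 250 bases before the gene's start in RefSeq (GRCh38.p14), 5′ to 3′ on the gene's strand. Capitals mark ACGTG or GCGTG, the core letters of the HIF element, on either strand (CACGT or CACGC when read on the printed strand). In CACGTG the motif lies on both strands and the matches overlap. ADM is at chr11:10304823-10305072 (plus strand), HK2 at chr2:74833877-74834126 (plus), ANKRD37 at chr4:185396591-185396840 (plus), PGK1 at chrX:78103998-78104247 (plus), ALDOC at chr17:28576896-28577145 (minus) and BNIP3 at chr10:131981924-131982173 (minus).
ADM: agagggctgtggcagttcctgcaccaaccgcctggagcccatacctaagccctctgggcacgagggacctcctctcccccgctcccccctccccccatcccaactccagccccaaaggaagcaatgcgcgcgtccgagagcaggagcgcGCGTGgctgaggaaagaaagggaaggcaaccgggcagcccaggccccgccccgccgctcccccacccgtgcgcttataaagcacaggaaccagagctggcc
HK2: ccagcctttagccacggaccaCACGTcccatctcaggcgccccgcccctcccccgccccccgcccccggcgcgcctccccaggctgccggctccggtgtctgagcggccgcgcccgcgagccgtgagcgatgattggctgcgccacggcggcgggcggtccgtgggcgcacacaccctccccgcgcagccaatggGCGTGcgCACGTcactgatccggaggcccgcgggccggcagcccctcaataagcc
ANKRD37: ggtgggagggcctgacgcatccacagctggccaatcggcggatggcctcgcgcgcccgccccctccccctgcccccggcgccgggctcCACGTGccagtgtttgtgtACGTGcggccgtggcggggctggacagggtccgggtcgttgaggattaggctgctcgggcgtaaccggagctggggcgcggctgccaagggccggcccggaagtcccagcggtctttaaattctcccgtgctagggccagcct
PGK1: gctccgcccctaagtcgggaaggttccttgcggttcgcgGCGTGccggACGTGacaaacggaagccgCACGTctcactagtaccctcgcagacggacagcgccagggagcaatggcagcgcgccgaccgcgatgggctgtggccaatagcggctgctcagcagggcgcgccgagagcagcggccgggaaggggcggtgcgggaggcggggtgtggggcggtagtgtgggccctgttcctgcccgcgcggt
ALDOC: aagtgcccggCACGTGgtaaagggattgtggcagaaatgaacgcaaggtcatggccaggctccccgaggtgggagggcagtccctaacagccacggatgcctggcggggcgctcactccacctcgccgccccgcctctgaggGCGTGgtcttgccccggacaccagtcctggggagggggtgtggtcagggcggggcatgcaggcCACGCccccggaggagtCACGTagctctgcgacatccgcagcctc
BNIP3: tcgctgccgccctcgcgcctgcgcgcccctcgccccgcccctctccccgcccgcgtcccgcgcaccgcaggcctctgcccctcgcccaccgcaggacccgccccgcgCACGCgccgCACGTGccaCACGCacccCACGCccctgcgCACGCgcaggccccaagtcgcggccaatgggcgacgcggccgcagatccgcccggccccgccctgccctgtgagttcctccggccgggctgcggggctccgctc
ADM had 1 match, HK2 3, ANKRD37 3, PGK1 3, ALDOC 5 and BNIP3 6, so these 3 genes that fell held as many matches as the 3 that rose, or more. The 6 were picked with their changes known, and these counts were not tested. Of the 33 members with a RefSeq window, 21 (63.6%) held a match, against 58.8% of the 9442 windows of tested genes and 43.2% of all 35116 windows. The share was 58.3% (7 of 12) among members that rose and 70% (7 of 10) among those that fell. A match was held by all 6 hypoxia genes with a window, 10 of the 17 enzymes, 3 of 5 HIF pathway genes and 2 of 5 regulators and transporters. A match is only a run of letters, and binding was not measured.

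The enzymes and the HIF and hypoxia genes were then set side by side, since both groups contain genes that HIF raises. Of the 12 tested genes of the HIF pathway and hypoxia groups, 7 rose, 3 fell and 2 did not pass. Their median log2 change was 0.56, and 0.40 relative to the median of all tested genes. Of the 17 enzymes, 3 rose, 7 fell and 7 did not pass, with a median of -0.19, and -0.36 on the same relative scale. Over all tested genes 39.8% rose and 24.9% fell. The regulators and transporters were split, with 3 higher, 2 lower (PFKFB4 among them) and 1 not passed of 6 tested.

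The enzyme median stayed below 0 and the HIF and hypoxia median above 0 under each of 3 other scalings, which move the whole table. With median-ratio scaling, where 33% of all genes were higher and 33.1% lower, 3 enzymes rose and 9 fell, and 6 HIF and hypoxia genes rose and 3 fell. With quantile normalization (34.8% higher and 31.7% lower over all genes) the enzymes gave 3 higher and 10 lower, and the HIF and hypoxia genes 6 higher and 2 lower. With upper-quartile scaling (28.7% higher and 37.5% lower) the enzymes gave 3 higher and 10 lower, and the HIF and hypoxia genes 6 higher and 4 lower. Leaving out NC-2 (39.5% higher and 31% lower) gave 3 higher and 11 lower enzymes, and 7 higher and 3 lower HIF and hypoxia genes. Leaving out NC-2 together with median-ratio scaling, an alternative added after the data were seen, gave 35.1% higher and 35.6% lower over all genes. In that setting 3 enzymes rose, 13 fell and LDHA alone did not pass. There HK2 was at 2.40, GAPDH at -0.98, PGAM1 at -1.07 and PGK1 at -1.03 on the log2 scale. HIF1A was at 1.49 and ADM at 3.36 on the same scale. The number of enzymes called lower thus depended on NC-2, whereas HK1, HK2 and PFKP were higher in each of these settings.

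**Figure D4:**
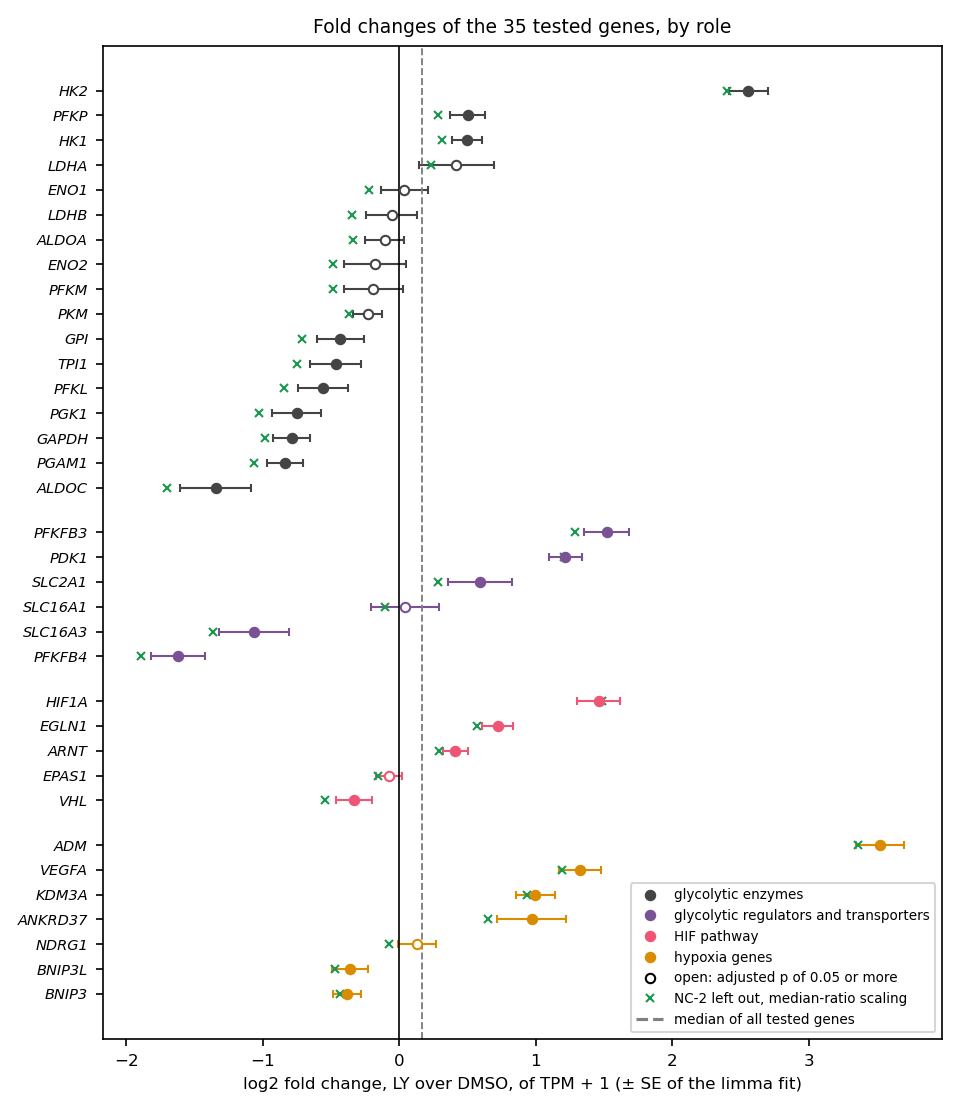
Log2 fold change (LY over DMSO, on log2(TPM + 1), bars for the standard error) of the 35 tested members by role on the deposited scale (circles, open where the test was not passed, dashed line at the median of all tested genes) and with NC-2 left out and median-ratio scaling (crosses). ADM and HK2 lie farthest right at 3.52 and 2.56, and most enzymes lie left of 0. In the second setting the enzyme median lies further left, but the median of all tested genes also moves, from 0.17 to 0.0035. Relative to all tested genes, the enzyme median moves from -0.36 to -0.49.

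Paralogs of the same step were compared within each library, as log2(TPM + 1) of the first minus that of the second, called their log2 ratio here, which depends little on the scaling of the library. Of 13 pairs, 10 could be tested, each by an exact permutation test (two-sided) of 5 against 5 libraries, whose smallest p is 0.0079, with Benjamini-Hochberg adjustment over the 10. The log2 ratio of HK2 to HK1 was -1.55 ± 0.29 in LY and -3.62 ± 0.14 in DMSO (SD, n = 5 each), a difference of 2.06 (exact permutation p = 0.0079, adjusted 0.0159). Both hexokinases rose, and HK1 was the higher one in every library. The ratio of PFKP to PFKL was 1.47 ± 0.13 in LY and 0.42 ± 0.16 in DMSO, a difference of 1.06 with the same p. The ratio of PFKM to PFKL was -1.24 ± 0.16 in LY and -1.60 ± 0.096 in DMSO, a difference of 0.37 (exact permutation p = 0.0159, adjusted 0.0265) with overlapping groups. Relative to PFKL, both PFKP and PFKM were thus higher with LY.

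The log2 ratio of PFKFB3 to PFKFB4 was 5.68 ± 0.38 in LY and 2.53 ± 0.20 in DMSO, a difference of 3.14 that is a description only, since PFKFB4 entered through its DMSO values alone. The ratio of ALDOC to ALDOA was -8.37 ± 0.30 in LY and -7.14 ± 0.34 in DMSO, a difference of -1.24 (exact permutation p = 0.0079, adjusted 0.0159). The ratio of EPAS1 to HIF1A was -3.76 ± 0.26 in LY and -2.23 ± 0.29 in DMSO, a difference of -1.54 with the same p. The ratios of HK2 to HK1, PFKP to PFKL, ALDOC to ALDOA and EPAS1 to HIF1A did not overlap between groups, NC-2 included. The pairs ENO2 to ENO1, LDHB to LDHA, SLC16A3 to SLC16A1 and BNIP3L to BNIP3 did not pass, with differences of -0.21, -0.48, -1.11 and 0.02. The ratio of SLC16A3 to SLC16A1 passed only without LY-4 or LY-5 (exact permutation, adjusted p = 0.0454).

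**Figure D5:**
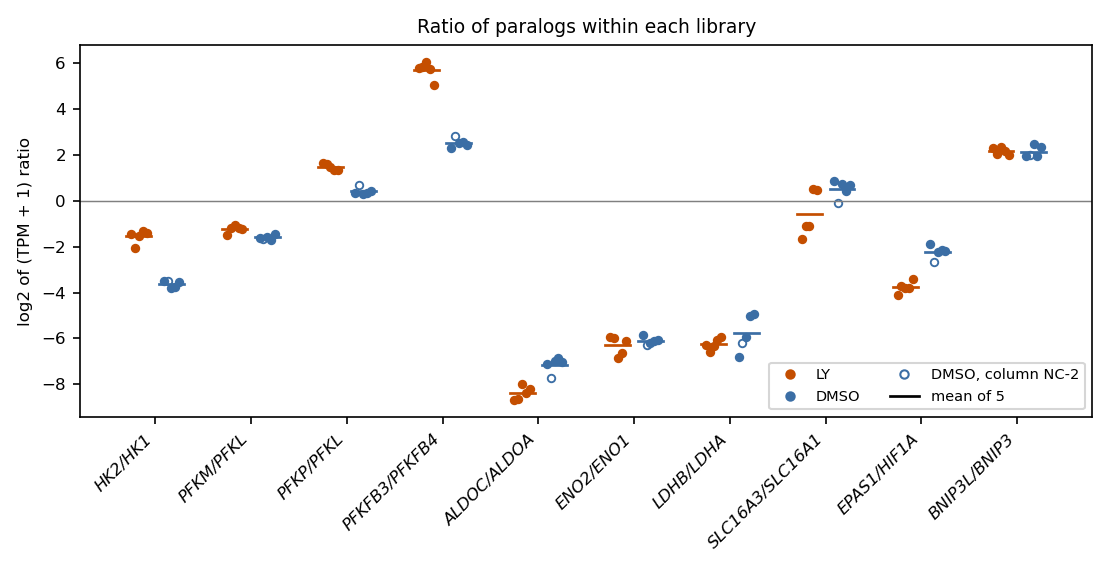
Difference in log2(TPM + 1) between paralogs (their log2 ratio) in each library, for the 10 tested pairs, with the 5 LY libraries left of the 5 DMSO libraries, lines at the means and NC-2 as open circles. PFKFB3 to PFKFB4 and HK2 to HK1 are higher in every LY library, and EPAS1 to HIF1A and ALDOC to ALDOA lower.

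Other genes of these pathways were read from lists of textbook members. Of 39 other genes of glycolysis and pyruvate entry, 29 were tested, and 5 rose and 9 fell, with a median log2 change of -0.14 against 0.17 over all tested genes. That is 48.3% changed, against 64.6% of all tested genes. SLC2A10, counted among the 9, was at 0.426 to 0.709 TPM in LY and 2.23 to 6.07 TPM in DMSO. It entered through its DMSO values alone, so its call is a description. HKDC1, a further hexokinase family member, rose to 76.2 ± 13.1 TPM with LY, against 33.1 ± 7.39 TPM with DMSO (1.19 ± 0.17, limma, adjusted p = 7.92e-05). TIGAR, which lowers the phosphofructokinase activator, rose by 0.72 ± 0.09 on the log2 scale (limma, adjusted p = 2.3e-05). Beside the rise of PDK1, its paralogs PDK3 and PDK2 fell, and PDK4 was too low to test. PDK3 was at 3.35 ± 0.409 TPM in LY and 11.5 ± 1.07 TPM in DMSO (-1.53 ± 0.10, limma, adjusted p = 1.94e-07), and PDK2 at 1.93 ± 0.288 TPM in LY and 5.45 ± 1.39 TPM in DMSO (-1.12 ± 0.15, adjusted p = 3.74e-05). The pyruvate dehydrogenase component PDHX rose by 0.59 ± 0.08 (adjusted p = 5.9e-05, APIP overlaps it), and BPGM, the bisphosphoglycerate mutase, fell by 0.98 ± 0.15 (adjusted p = 9.78e-05).

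Of 17 other HIF pathway genes, 15 were tested, and 5 rose and 1 fell, with a median log2 change of 0.25. That is 40% changed, against 64.6% of all tested genes. CREBBP and EP300, the coactivators that HIF recruits, rose by 1.26 ± 0.10 and 1.22 ± 0.14 on the log2 scale (limma, adjusted p = 4.48e-07 and 9.44e-06). CITED2, which competes with HIF for these coactivators, was at 463 ± 102 TPM in LY and 97.9 ± 30.9 TPM in DMSO, a log2 change of 2.25 ± 0.20 (limma, adjusted p = 1.54e-06). Genes that assist HIF and a gene that restrains it thus rose together with HIF1A.

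Of 54 other hypoxia genes, 46 were tested, and 19 rose and 11 fell, with a median log2 change of 0.30. That is 65.2% changed, against 64.6% of all tested genes (39.8% higher and 24.9% lower), so the list as a whole was near the background. LOX, at 1.10 to 1.59 TPM in LY and 0.465 to 0.771 TPM in DMSO, entered the test through its LY values alone. PPFIA4, at 0 to 0.055 TPM in LY and 2.01 to 3.86 TPM in DMSO, entered through its DMSO values alone. Both are in these counts, but their calls are a description. DUSP1, a phosphatase of mitogen-activated kinases, KCTD11 and the scaffold gene AKAP12 rose by 2.21 ± 0.33, 1.66 ± 0.15 and 1.46 ± 0.10 on the log2 scale (limma, adjusted p = 9.8e-05, 1.34e-06 and 1.87e-07). DDIT4, which restrains the mTOR kinase, was at 5.39 ± 1.71 TPM in LY and 46.4 ± 17.02 TPM in DMSO (-2.84 ± 0.27, limma, adjusted p = 2.29e-06). The collagen-modifying hydroxylases P4HA2 and PLOD1 fell, with log2 changes of -2.63 ± 0.15 and -1.78 ± 0.14 (limma, adjusted p = 4.75e-08 and 5.93e-07). Known hypoxia-induced genes thus lay at both ends, with ADM up and DDIT4 and P4HA2 down. Of 13 other ligand and receptor genes of adrenomedullin and the VEGF family, 3 were tested, and 1 rose and 2 fell. That is 100% changed, against 64.6% of all tested genes, but it rests on only 3 genes. Beside VEGFA, VEGFC rose by 1.17 ± 0.10 and VEGFB fell by 0.85 ± 0.15 (limma, adjusted p = 7.62e-07 and 0.000273). The other gene that fell had a larger log2 change of -1.59 and was under the mean of 5 TPM needed to be named. A fall of that size from so low a level means that it entered the test largely through its DMSO values. Its call, which is in these counts, is therefore a description. The adrenomedullin receptor genes CALCRL, RAMP1, RAMP2 and RAMP3 were too low to test.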

How the data were processed

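Messenger RNA libraries of PANC-1 cells (5 LY, 5 DMSO) were analysed from 1 table of TPM per gene that the authors deposited. The sample labels name an RNeasy kit and an mRNA library kit, whereas the series' design text names Trizol. Per the submitters' processing notes the genome builds were hg38, GRCm38 and mm10, with no role given to each. Aligner, quantifier, annotation and read depth were not given in the sources used here. The control columns NC-1 to NC-5 appear in no sample title and were assigned to DMSO as a group. The series' design text gives 4 libraries a group, the labels 5.

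Ensembl identifiers were matched to symbols through a gene table (20148) or GENCODE 29 (76), and 39 stayed unnamed. Positions are those of GENCODE 29 on GRCh38. Genes with at least 1 TPM in at least 5 of 10 libraries were tested on log2(TPM + 1), without covariates, in limma 3.58.1 (R 4.3.3), with Benjamini-Hochberg adjustment over all 11663 genes. Ratios and exact permutation tests were computed in Python 3.11.15 with numpy 2.4.6 and pandas 2.3.3. The fit was checked on simulated data. Alternatives were pseudocounts, filters, median-ratio, quantile and upper-quartile scalings, removal of mitochondrially encoded genes, limma options and leaving out each library in turn. Leaving out NC-2 together with median-ratio scaling was added after the data were seen. The 39 members and all lists were chosen with earlier results of these data known. All 39 members are named. Of each other list, the up to 3 largest increases and 3 largest decreases past the threshold are named, where the groups did not overlap and the higher mean was at least 5 TPM.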

Additional observations from a re-analysis of the deposited data

Results flagged for a closer look

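In 15 of the 16 groups of 5 libraries where 1 library stood far from the other 4, that library was NC-2, out of 78 groups examined. For a single group, chance gives such a library in about 1 in 20. The 78 groups come from the same 10 libraries and are not independent, so the number of cases was not tested against that rate. Among the glycolytic enzymes, NC-2 was the lowest DMSO library for HK1 at 109 TPM (others 143 to 152), PFKL at 123 (223 to 242), PFKP at 198 (283 to 307), ALDOA at 535 (797 to 878) and ALDOC at 1.54 (5.38 to 5.94). In the lower part of the pathway it was the lowest for TPI1 at 1459 TPM (others 2693 to 2800.2), GAPDH at 5712 (7707 to 7856), PGK1 at 119 (205 to 238), PGAM1 at 478 (711 to 777) and ENO1 at 1898 (3139 to 3464). The sum of the 17 enzymes in NC-2 was 12483 TPM, and 18108 to 19248 TPM in the other DMSO libraries. NC-2 was also the lowest for SLC2A1 at 15.1 TPM (others 30.3 to 36.4), VHL at 16.9 (24.5 to 26.4) and NDRG1 at 4.01 (6.15 to 6.85). It was the highest for HIF1A, at 173 TPM against 108 to 111 TPM in the other DMSO libraries. The remaining case was SLC2A3 in LY-5, at 0.0354 TPM where the other 4 LY libraries were at 0.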

How the results depend on the processing

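No paired analysis was possible because the numbers of the control columns could not be tied to numbered DMSO samples. Of the 25 changed members, 15 kept their direction and call in all 19 alternatives. Another 3, ALDOC, PFKFB4 and ANKRD37, kept them in each alternative that tested them, since they were too low for the stricter filter. PFKFB4 entered the test through its DMSO values alone, so its held call adds nothing. PDK1, counted among the 15, reached the 5 TPM of the stricter filter in its LY libraries alone. Its held call under that filter likewise adds nothing. Upper-quartile scaling gave 4371 genes lower, against 2899. With NC-2 left out and median-ratio scaling, 13 enzymes were lower and 16 changed, against 7 and 10. Over all tested genes 35.6% were lower there, against 24.9%. Leaving out 1 library at a time gave 5 to 11 enzymes lower, 8 to 14 changed and 3 to 4 higher. It gave 20 to 28 members changed and 1 to 3 HIF and hypoxia genes lower. Over all 11663 tested genes it gave 2633 to 3610 lower, 4400 to 4607 higher and 7147 to 8217 changed, so these calls moved too. The numbers of enzymes lower and of all genes lower were both largest without NC-2. Signs turned in members that did not pass: ENO1 was at -0.14 (median-ratio), -0.24 (upper-quartile), -0.12 (no mitochondrial genes), -0.22 (NC-2 left out and median-ratio) and -0.12 to 0.10 on leaving out 1 library. SLC16A1 was at -0.13, -0.23, -0.11 and -0.11 in these settings, -0.23 with quantile normalization and -0.12 to 0.24 on leaving out 1 library. NDRG1 was at -0.015, -0.10, -0.0036 and -0.075 in the same order. LDHB ranged from -0.25 to 0.034 on leaving out 1 library, and the ratio of BNIP3L to BNIP3 from -0.030 to 0.098, with -0.017 under median-ratio scaling. The cause was not tested. Depth is unknown, so counting error could not be given.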
